A study of Mus musculus with 48 samples.

Results

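The transcripts described here encode proteins of the cytosolic ribosome, the machine that translates messenger RNA outside the mitochondria. They were 51 protein-coding genes, 24 of the small subunit (Rps genes) and 27 of the large subunit (Rpl genes), chosen by symbol and matched through their Ensembl identifiers. All 51 were found among the 47069 gene rows of the count table. RNA sequencing had been done on cortex, striatum and cerebellum of 16 mice, which gave 48 libraries. Of these mice, 8 carried a heterozygous deletion of chromosome 7 band 7qF3, the counterpart of human 16p11.2, and 8 were wild-type controls. All were on a C57BL/6N:129Sv background. Each genotype had 4 males and 4 females, so each of the 6 groups of tissue and genotype held 8 libraries, and every animal gave 1 library of each tissue. The label field for age holds a date that splits the animals in the same way as sex, so date and sex cannot be told apart, and no age is given here.

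Cytosolic ribosomes are built in the nucleolus from ribosomal RNA and about equal numbers of copies of each protein, so that the genes are usually transcribed at high and matched levels. Their messenger RNAs are short. They typically begin with a run of pyrimidines, the 5′ terminal oligopyrimidine or TOP motif, through which mTOR signalling sets how well they are translated. In neurons, part of the ribosomal protein messenger RNA is carried into axons and dendrites.

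The 51 genes lay on 19 chromosomes. Rps4x and Rpl10 are on the X chromosome, and 8 are on chromosome 7. The median length of the principal transcript was 775 bases (345 to 3706), and 36 of the 51 were under 1000 bases, against a median of 2391 bases over all protein-coding genes of the annotation. The coding sequence had a median of 480 bases (168 to 1257). Promoter sequences on GRCm38.p6 were found in RefSeq for 40 members. A pyrimidine run of at least 6 bases within 10 bases of the annotated start was present in 22 of 40 members (55.0%), against 29.1% of 27025 promoters. The search for other short sequences used both strands of the 300 bases around the start. CCGGAA was present in 45.0% of members against 15.2% of all promoters, GGGCGG in 20 of 40 members against 35.9%, and TCTCGCGA in 17.5% against 1.08%. TATAAA was present in 2.5% against 14.2%. A match is a description of these letters and not a measured binding site.

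Start regions are shown for the 4 members that differed most clearly between tissues below (Rpl12, Rpl10, Rpl9 and Rpl15), for Rpl18, which went the opposite way, and for Rps6, which is the ribosomal protein phosphorylated by S6 kinase downstream of mTOR. Each line runs 5′ to 3′ along the gene, 40 bases before the annotated start and 15 from it, with the longest pyrimidine run near the start in capitals. On GRCm38.p6, Rpl12 is on the plus strand at chr2:32961672-32961726, Rpl10 on the plus strand at chrX:74270776-74270830 and Rpl18 on the plus strand at chr7:45718031-45718085. Rpl9 is on the minus strand at chr5:65391417-65391471, Rpl15 on the minus strand at chr14:18270972-18271026 and Rps6 on the minus strand at chr4:86857353-86857407.
Rpl12: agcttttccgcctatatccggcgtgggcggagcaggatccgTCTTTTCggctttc
Rpl10: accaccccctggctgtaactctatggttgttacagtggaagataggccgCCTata
Rpl9: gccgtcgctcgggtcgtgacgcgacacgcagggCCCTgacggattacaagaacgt
Rpl15: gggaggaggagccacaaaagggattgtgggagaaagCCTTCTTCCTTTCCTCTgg
Rpl18: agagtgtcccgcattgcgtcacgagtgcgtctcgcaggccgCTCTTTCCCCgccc
Rps6: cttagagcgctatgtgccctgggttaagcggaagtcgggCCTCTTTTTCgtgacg
The run was 17 bases in Rpl15, 10 in Rpl18 and Rps6, 7 in Rpl12, 4 in Rpl9 and 3 in Rpl10. The members that were lower in cerebellum therefore included both long and short runs at the annotated start.

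The libraries held between 29244745 and 60751792 gene counts each (median 32232112). Taok2, a gene inside the deleted interval, was at 59.98 to 86.3 CPM (counts scaled to a common library size) in the 24 deletion libraries and at 132.2 to 195.6 CPM in the 24 wild-type libraries, with no overlap, so the genotype labels held for this gene. Tissue labels were checked with marker lists, as the mean log2 CPM of each list. Cerebellar markers were at 6.42 to 9.12 in cerebellum libraries and at 1.65 to 2.77 in the others. The cerebellum library of deletion animal D809 (D for deletion, W for wild type) stood apart at 6.42, against 8.42 to 8.80 in the other 7 deletion cerebella. It also had the highest oligodendrocyte (9.09), microglial (4.32) and striatal (3.36) marker levels of the 16 cerebellum libraries and the highest summed member CPM of its group. Cortical markers were at 5.49 to 6.59 in cortex, at 2.03 to 5.59 in striatum and at 1.85 to 3.21 in cerebellum, so that cortex and striatum overlapped. Striatal markers were at 4.48 to 8.61 in striatum but also at 3.62 to 7.48 in cortex, so that these ranges overlapped. In 3 striatal libraries, from animals D810, W813 and W815, the cortical or the thalamic markers were at or above the striatal markers. Results on cerebellum and striatum are given with and without these libraries, and their part in the other values was not tested. Striatal markers were above cortical markers in the cortex libraries of D803, D804, D809, D810, D811, W805, W806, W815 and W816. In D803 they were at 7.48 against 5.85, and in W805 at 7.01 against 5.71. No fit left these cortex libraries out together, so the comparisons with cortex include them.

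The 51 members differed widely in level. Compared per kilobase of coding sequence, Rps29 was highest in wild-type cortex at 1950 ± 555 CPM per kb (SD, n = 8). Rps21 (1069 ± 341), Rps24 (1066 ± 304), Rps15 (1054 ± 331) and Rpl21 (945 ± 270) came next, and the spread of these 4 overlapped. The lowest, other than Rpl24, were Rpl10a at 164 ± 44.0, Rps6 at 182 ± 36.5, Rpl27 at 197 ± 46.9 and Rpl15 at 210 ± 19.6 CPM per kb. Rps29 was also highest and Rpl10a lowest of these 50 in the other 5 groups, with Rps29 at 1410 ± 536 and Rpl10a at 147 ± 43.2 in wild-type cerebellum. Rps29 has the short coding sequence that favours a high value on this scale, and the order rests on the annotated length.

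Rpl24, which encodes a protein of the large subunit, stood apart with 547 counts in all 48 libraries together and 4 to 26 counts per library. Its exons share 47.0% of their bases with Gm28037, a transcript on the same strand that had 0 counts. How reads in shared bases were counted is not given in the sources used here. Rpl24 was left out of summed and mean levels, except that its few counts are in the summed CPM, and passed the filter on low counts in some comparisons only. Processed pseudogenes named after members numbered 162, for 35 of the members. Their counts were highest relative to the parent gene for Rps13 (18.2%), Rps15a (8.93%) and Rpl3 (5.23%), and reads could have been split between copies.

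Ribosomal protein transcripts varied more between libraries of 1 group than between groups. The summed CPM of the members ran from 8544 to 18599 in wild-type cortex (median 13620) and from 6793 to 18510 in deletion cortex (median 11883). In striatum it ran from 7812 to 21398 in wild type (median 10933) and from 8698 to 18963 in deletion mice (median 12737). In cerebellum it ran from 5835 to 15318 in wild type (median 11662) and from 5939 to 16652 in deletion mice (median 11794), where the highest library other than that of D809 was at 13460. Deletion and wild-type libraries overlapped over most of their range in each tissue. In the plot of summed CPM by group, males and females also overlap within every group. In cortex and striatum of both genotypes the lowest library was from a female and the highest from a male. In cerebellum of both genotypes it was the reverse.

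**Figure D1:**
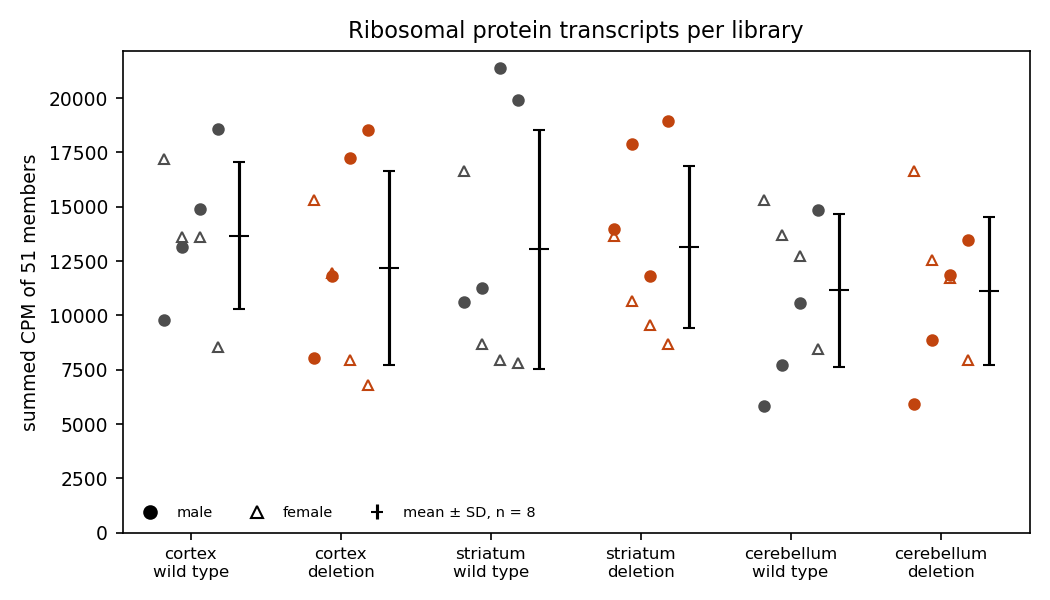
Summed CPM of the 51 members (vertical axis) in each library, by tissue and genotype (horizontal axis). Filled circles are males, open triangles females, and bars are the mean ± SD of 8 libraries. The lowest and highest libraries of a group differ by more than the group means do, as in wild-type striatum, which runs from 7812 to 21398.

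Almost all members took part in this spread. Over the 50 members other than Rpl24, the highest library of a group exceeded the lowest by a median of 2.20-fold in wild-type cortex and 2.93-fold in wild-type striatum. Rpl15, a core protein of the large subunit, was the steadiest member in all 6 groups, with a fold of 1.24 to 1.54. Within genotypes, the median SD of a member was 0.49 in cortex, 0.52 in striatum and 0.51 in cerebellum on the log2 CPM scale. Taken relative to the mean of the other members of the same library, the median SD was 0.09, 0.10 and 0.09. The members thus kept their proportions to one another far more closely than their level.

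The same spread was present in other short transcripts. A short-transcript score was computed per library, as the mean log2 CPM of 912 protein-coding genes with transcripts under 1000 bases minus that of 4688 genes over 4000 bases, centred on the wild-type mean of the tissue. Ribosomal protein genes were left out of it. Within genotypes, a member's log2 CPM changed by a median of 0.81 per unit of score in cortex, 0.81 in striatum and 0.80 in cerebellum. The median SD of a member after the score was 0.08, 0.12 and 0.08. In cortex the corresponding median slope was 0.83 for 50 short genes of oxidative phosphorylation (OXPHOS) and 0.88 for 28 other cytosolic ribosomal protein genes. It was 0.60 for 77 mitochondrial ribosomal protein genes, 0.21 for 37 translation factors, 0.16 for 53 ribosome biogenesis genes and 0.01 for 22 genes of mTOR signalling and its control of translation. By length, it was 0.62 for other coding genes under 1000 bases, 0.33 from 1000 up to 2000 bases, -0.01 from 2000 up to 4000 bases and -0.42 for 4000 bases and over. The shortest and the longest of these classes make up the score, so their slopes lie apart by construction and are no separate evidence. Short OXPHOS and mitochondrial ribosomal protein genes were not left out of the score either. The translation factor, ribosome biogenesis and mTOR lists thus had slopes well below those of the ribosomal proteins. The slope of 23 other TOP messenger RNAs lay between, at 0.49 in cortex. Slopes were not compared at matched transcript length, and the part of length in these differences was not tested. Measures of RNA integrity were not used here, and the part of RNA quality in this spread was not tested.

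**Figure D2:**
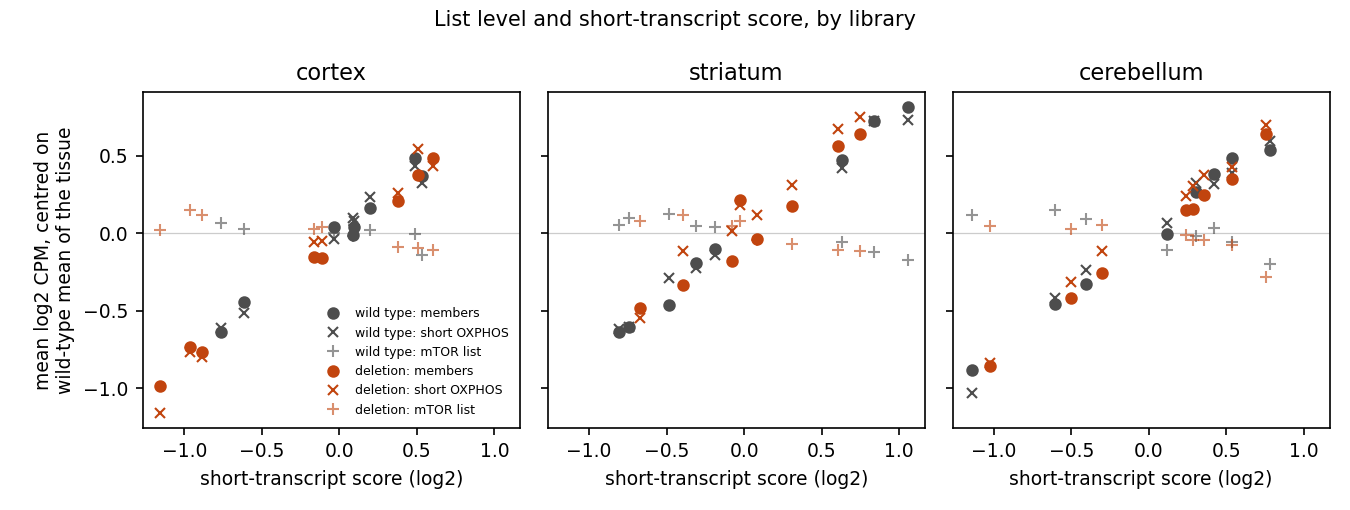
Mean centred log2 CPM of 50 members (circles), of short OXPHOS genes (x marks) and of the mTOR list (plus signs) against the short-transcript score, by library, in 3 tissues. Wild-type libraries are grey and deletion libraries orange. Members and short OXPHOS genes rise along the score together, with median member slopes of 0.80 to 0.81, and the mTOR list, with a median slope of 0.01 in cortex, does not follow them. Members were left out of the score, and short OXPHOS genes were not.

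The steepest members in cortex were Rps29 (1.07 per unit of score), Rps26 (1.06), Rpl13 (1.05) and Rps21 (1.01). The flattest was Rpl15, at 0.23 in cortex, 0.23 in striatum and 0.26 in cerebellum, although its principal transcript of 883 bases is also short. Rpl22 had slopes of 0.46, 0.47 and 0.45, and Rps15a had slopes of 0.56, 0.59 and 0.34. The order of the animals by member level was in part shared between tissues. Of the 5 animals with the lowest member level in cortex and the 5 lowest in cerebellum, 4 were the same (D801, W805, D812 and W816). Of the 5 highest, 4 were the same (D804, W808, D809 and W813). Cortex and striatum shared 3 of the 5 lowest and 3 of the 5 highest. Striatum and cerebellum shared 2 of the 5 lowest (D812 and W816) and 3 of the 5 highest (D804, W808 and W813).

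Deletion was then compared with wild type in each tissue, the question the series was designed for. No member was called by edgeR's quasi-likelihood test at a Benjamini-Hochberg adjusted p under 0.05 in cortex (0 of 50 tested), striatum (0 of 50) or cerebellum (0 of 51). Over all genes tested, 0.13% were called in cortex (0.0119% higher), 0.128% in striatum (0.0116% higher) and 0.138% in cerebellum (0.012% higher), so few calls could be looked for among the members. No member had an unadjusted p under 0.05 in any tissue, and DESeq2 called 0 as well.

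In cortex the members were lower in deletion libraries as values, and not beyond the spread between animals. The log2 fold change ran from -0.31 to -0.03, with a median of -0.18 and a median SE of 0.23, beside a median of 0.00 over all genes. The list's small-subunit and large-subunit genes had medians of -0.17 and -0.18. Rpl30, a small RNA-binding protein of the large subunit, ran from 93.1 to 196.2 CPM with a median of 171.7 in wild type and from 70.2 to 174.4 CPM with a median of 129.5 in deletion cortex. The groups overlapped over most of this range (log2 fold change -0.31 ± 0.22 SE, edgeR adjusted p = 0.965). The other members named by smallest p were Rps15a (-0.24 ± 0.17), Rpl23 (-0.26 ± 0.22), Rps13 (-0.27 ± 0.23) and Rpl5 (-0.25 ± 0.22), with the same adjusted p. Rpl5 and Rpl23 are among the ribosomal proteins that can bind Mdm2, the regulator of p53. The value closest to 0 was that of Rpl15 (-0.03 ± 0.09).

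The cortex value went in the direction of other short transcripts. As a value it also differed between the sexes, a difference that was not called. The short-transcript score was 0.00 ± 0.47 (SD, n = 8) in wild-type and -0.22 ± 0.70 in deletion cortex. The median log2 fold change was -0.14 over 50 short OXPHOS genes, -0.10 over mitochondrial ribosomal proteins and -0.11 over 798 other coding genes under 1000 bases, but 0.10 over 4596 coding genes of 4000 bases and over. With the score in the fit, the median member was at -0.04, the median SE was 0.04, and 0 members were called while 0.16% of all genes were (0.0119% higher). In females alone the median was -0.35 and in males alone 0.01. The test of that difference, the interaction of genotype and sex, called 0 of 50 members and 0% of all genes, with all 50 values higher in males (median difference 0.35). Striatal markers were also higher as values in deletion cortex (18 of 18, 0 called, mean log2 CPM 5.21 to 7.48 against 3.62 to 7.07), and with their level in the fit the median was -0.11.

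In striatum, 32 of 50 members had a positive log2 fold change, with a median of 0.01 and a range of -0.12 to 0.12. Rpl15 was highest at 0.12 ± 0.09 and Rps15a lowest at -0.12 ± 0.16 (edgeR adjusted p = 0.99996 for both). Rpl17 was at 0.08 ± 0.19, Rpl11 at 0.08 ± 0.22 and Rps12 at 0.08 ± 0.23. Rpl11 binds 5S ribosomal RNA together with Rpl5. Short OXPHOS genes, with a median of 0.13, had 49 of 50 values above 0 and 0 called, and striatal markers, with a median of 0.42, had 18 of 18 above 0 and 0 called. Without the 3 striatal libraries of mixed markers the median of the members was 0.13, and 0.04 with the score added, with 0 called in both fits.

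In cerebellum, 21 of 51 members were positive, with a median of -0.01 and a range of -0.16 to 0.07. Rps15a was lowest (-0.16 ± 0.14) and Rpl10 highest (0.07 ± 0.20), with edgeR adjusted p = 0.9997 for each. Rpl10, the X-linked protein that joins the large subunit late in its assembly, ran from 110.6 to 313.8 CPM in wild type and from 135.6 to 330.9 CPM in deletion cerebellum. Rpl30 was at -0.14 ± 0.21, Rps13 at -0.10 ± 0.23 and Rpl18 at -0.07 ± 0.24. With the score in the fit, the medians of striatum and cerebellum were 0.02 and -0.04, with median SEs of 0.06 and 0.05, and 0 members were called beside 0.174% and 0.18% of all genes (0.0233% and 0.036% higher). Without the cerebellum library of D809 the cerebellum median was -0.10, and -0.05 with the score, with 0 called in both fits, and Rpl10 turned to -0.0132.

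**Figure D3:**
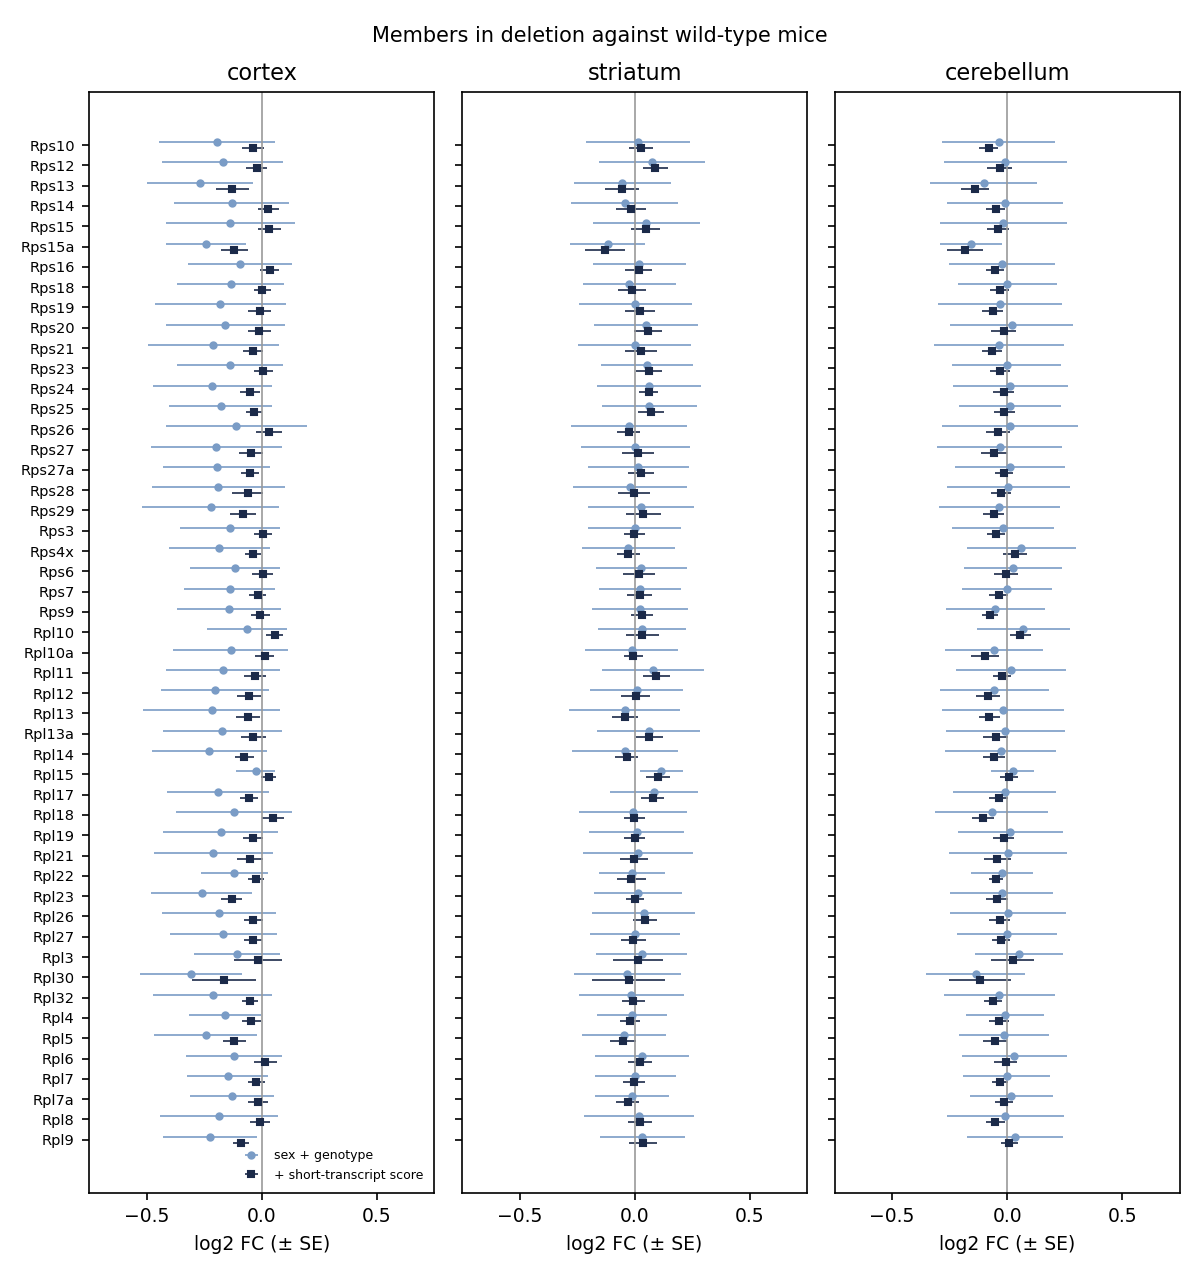
Log2 fold change of 50 members, deletion over wild type (horizontal axes, ± SE), in 3 tissues, in the fit with sex and genotype (light circles) and with the short-transcript score added (dark squares). All light cortex points lie below 0, from -0.31 to -0.03, and the dark points have smaller errors and lie nearer to 0.

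Rps15a, a small-subunit gene at chromosome 7 (118104372 to 118116188, GENCODE vM21 on GRCm38, minus strand), was negative in all 3 tissues. It ran from 133.5 to 277.4 CPM (median 220.8) in wild-type and from 135.7 to 266.4 CPM (median 177.8) in deletion cortex. In striatum it ran from 126.7 to 325.6 CPM (median 213.0) against 151.8 to 285.3 CPM (median 188.7). In cerebellum it ran from 151.8 to 246.1 CPM (median 211.0) against 144.9 to 244.6 CPM (median 196.8). The groups overlapped in every tissue, and the gene was not called. Its striatum value turned to 0.0205 without the libraries of mixed markers. Rps13 was also negative in all 3 tissues. With the score, Rps15a in cerebellum was at -0.18 ± 0.08 (edgeR adjusted p = 0.724). Other members with an unadjusted p under 0.05 in that fit were Rps13, Rpl18 and Rps9 in cerebellum and Rpl23, Rpl5 and Rpl9 in cortex, and all had adjusted p of 0.724 or more. A difference of the genotype effect between tissues was called for 0 of 51 members and 0% of all genes in each of the 3 tissue pairs. The value of the genotype effect was higher in striatum than in cortex for all 51 members (median difference 0.19, median SE 0.36). The libraries of these tissues share their animals, and this fit and its SE ignore that. With the animal as a block, the median difference was 0.31.

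Other genes of the translation apparatus were likewise not called in the comparison of genotypes. Among 28 other cytosolic ribosomal proteins, 37 translation factors, 53 ribosome biogenesis genes, 23 other TOP messenger RNAs and 22 mTOR genes, 0 were called in any tissue. The genes of smallest p in their lists in cortex included Eif5b, an initiation factor that joins the subunits (-0.29 ± 0.11), and Gnl3, a nucleolar GTPase (-0.13 ± 0.06), both with edgeR adjusted p = 0.965. Rpl39 was at -0.24 ± 0.21 and Eif4ebp1, a repressor of cap-dependent translation that mTOR controls, at -0.42 ± 0.28.

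Tissues were compared in wild-type and in deletion animals separately. In bulk tissue, fewer cells of a type and less RNA per cell cannot be told apart. In wild-type mice, 48 of 50 members were lower in cerebellum than in cortex, with a median log2 fold change of -0.32, beside 0.03 over all genes. In the fit with sex and tissue alone, 4 were called lower and 0 higher, when 25.7% of all genes were called lower and 25.1% higher, so the share of members called was not above the background.

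The 4 called were large-subunit genes. Rpl12, a protein at the base of the ribosomal stalk, ran from 175.8 to 429.3 CPM (median 291.6) in wild-type cortex and from 89.3 to 250.4 CPM (median 172.8) in cerebellum. No cerebellum library reached the cortex mean, although the groups overlapped (-0.72 ± 0.24, edgeR adjusted p = 0.0175). Rpl9 ran from 328.9 to 674.1 CPM (median 505.8) and from 188.4 to 464.1 CPM (median 369.5), also with every cerebellum library below the cortex mean (-0.58 ± 0.20, edgeR adjusted p = 0.0244). Rpl10 ran from 202.3 to 368.7 CPM (median 297.4) and from 110.6 to 313.8 CPM (median 220.0), with 1 cerebellum library above the cortex mean (-0.50 ± 0.19, edgeR adjusted p = 0.0394). Rpl15 had the smallest change and the narrowest ranges, 109.6 to 142.5 CPM (median 129.3) in cortex and 87.2 to 120.6 CPM (median 106.9) in cerebellum (-0.32 ± 0.09, edgeR adjusted p = 0.00618). Without W806, or without W807, 1 member was called in place of 4, and without W808 there were 5.

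When the library spread was taken into account, most members were called. With the short-transcript score in the fit, 44 of 50 members were lower in wild-type cerebellum and 1, Rpl18, was higher, while 33.8% of all genes were lower and 34.5% higher. The median log2 fold change was -0.34, close to the value without the score, and the median SE was 0.05 in place of 0.22. With the animal as a block instead, 33 were called lower and 0 higher, when 30.9% of all genes were called lower, and the median was -0.34. The score is centred on the wild-type mean of each tissue. In wild-type mice it therefore takes up the spread between libraries of a tissue and leaves any difference of short transcripts between tissues in place. That difference was near 0 here. The median was -0.01 over other coding genes under 1000 bases and 0.01 over short OXPHOS genes, of which 15 were called higher and 10 lower.

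The deletion mice are separate animals. The same comparison in them gave a smaller median without the score, and values of the same size once the score was included. There, 45 of 51 members were lower and 1 was higher, while 32.7% of all genes were lower and 34.2% higher, with a median of -0.33. All 44 members called lower in wild-type mice were among the 45 called lower in deletion mice, and the added one was Rps9. With most members called in each genotype, a large overlap follows from the counts alone. The overlap over all genes is not given, here and below. Without the score the deletion mice gave 1 lower and 1 higher (23.5% and 22% of all genes) and a median of -0.15, and with the animal block 4 lower and 1 higher (28.1% and 28.2%). The lower one was Rpl15 (-0.26 ± 0.10, edgeR adjusted p = 0.0468), a call that was lost when any of D801, D802, D803, D804, D809, D810 or D812 was left out. The higher one was Rpl24 (0.93 ± 0.28, edgeR adjusted p = 0.0131), which rested on 0.235 to 0.823 CPM in cerebellum and 0.147 to 0.415 CPM in cortex, and was lost without D803. The short-transcript score of deletion cortex averaged -0.22 and that of deletion cerebellum 0.04. In deletion mice the score thus differed between tissues, and the fit took up that difference as well. How much of the move in the median from -0.15 to -0.33 came from it was not tested. Without the cerebellum library of D809, 2 members were lower and 1 was higher without the score, with a median of -0.25, and 46 were lower and 1 was higher with it, with a median of -0.33.

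Among the small-subunit genes, 21 of 24 were lower in wild-type cerebellum with the score in the fit, with a median of -0.39. Rps15, which lies near the decoding centre, was at -0.63 ± 0.05, Rps27 at -0.60 ± 0.07, Rps21 at -0.58 ± 0.05 and Rps19 at -0.57 ± 0.05. RPS19 is the gene most often mutated in human Diamond-Blackfan anaemia. Rps6 (-0.06 ± 0.05), Rps9 (-0.06 ± 0.04) and Rps15a (-0.06 ± 0.09) were not called. Among the large-subunit genes, 23 of 26 were lower and 1 was higher, with a median of -0.31. Rpl12 was lowest of all members, at -0.75 ± 0.07 in wild-type and -0.76 ± 0.03 in deletion mice. Rpl9 was at -0.60 ± 0.04 and Rpl10 at -0.53 ± 0.04 in wild type. Rpl7 (0.03 ± 0.04) and Rpl30 (-0.19 ± 0.11) were not called.

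Rpl18 was the member called higher in wild-type cerebellum, at 0.21 ± 0.05 (edgeR adjusted p = 0.00150). It ran from 82.0 to 201.6 CPM (median 138.7) in cortex and from 77.8 to 242.4 CPM (median 179.3) in cerebellum, with wide overlap. In deletion mice it was at 0.07 ± 0.05 and was not called (edgeR adjusted p = 0.217). The difference between genotypes was not tested with the score in the fit. The members therefore did not change by 1 common factor between these tissues, since the fitted values ran from -0.75 to 0.21 with SEs of about 0.05.

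**Figure D4:**
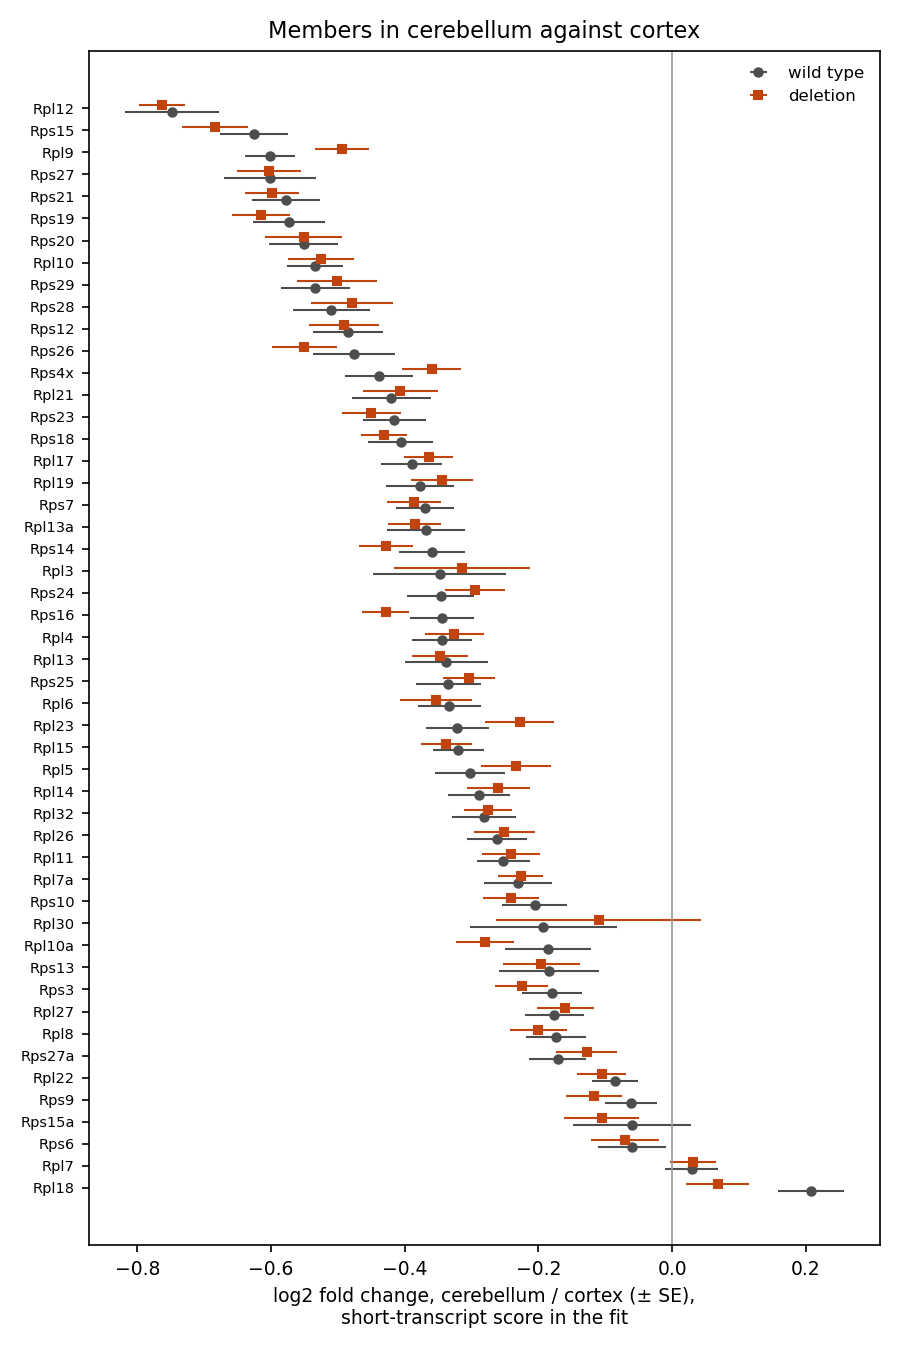
Log2 fold change of 50 members, cerebellum over cortex (horizontal axis, ± SE), with the short-transcript score in the fit, in wild-type (grey circles) and deletion mice (orange squares), 8 animals each. Members are ordered by the wild-type value, from Rpl12 at -0.75 to Rpl18 at 0.21, and Rpl12 is also lowest in deletion mice, at -0.76.

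Other cytosolic ribosomal proteins went the same way, with 20 of 28 lower in wild-type cerebellum with the score, beside 33.8% of all genes, and a median of -0.28. In the fit without the score, Rps2 was called lower (-0.99 ± 0.22, edgeR adjusted p = 0.00112), as was Rpl41 (-0.77 ± 0.29, adjusted p = 0.0347). In that fit 25.7% of all genes were called lower and 25.1% higher. The translation factor, biogenesis, other TOP, mitochondrial and mTOR lists had shares no higher than these. Translation factors had 8 of 37 lower and 1 higher, led by Eif1a (-0.60 ± 0.06), Eef1a1 (-0.46 ± 0.11) and Eif4a1 (-0.46 ± 0.13). Ribosome biogenesis genes had 11 lower and 10 higher of 53, with Nhp2 (-0.94 ± 0.25) and Bysl (-0.79 ± 0.10) lower and Dkc1, a pseudouridine synthase (0.60 ± 0.12), and Polr1b, a subunit of RNA polymerase I (0.49 ± 0.11), higher. Other TOP messenger RNAs had 5 of 23 lower, led by Nap1l1, a histone chaperone (-0.99 ± 0.07), and 2 higher. Mitochondrial ribosomal proteins had 4 lower and 4 higher of 77, with a median of -0.03. Among mTOR genes, with 4 lower and 4 higher of 22, Rps6ka1 was highest (3.19 ± 0.14) and Eif4ebp1 lowest (-1.28 ± 0.38). Microglial markers were lower in cerebellum (12 of 12 called, median -1.67) and oligodendrocyte markers higher in 1 of 10, and their part in the members' values was not tested.

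Against striatum, the cerebellum median was nearer 0 than against cortex in wild-type mice, and in deletion mice only with the score. In deletion mice 46 of 51 members were lower in cerebellum than in striatum, with a median of -0.19 beside the -0.15 against cortex, and with the score it was -0.21 beside -0.33. In wild-type mice, 45 of 50 members were lower, with a median of -0.19, and 0 were called beside 23.1% of all genes lower and 20.7% higher. By edgeR 1 member, Rpl10, had an unadjusted p under 0.05 (-0.61 ± 0.26, adjusted p = 0.0707), and DESeq2 called 0 lower and 1 higher. With the animal block Rpl10 was called lower (-0.60 ± 0.20, edgeR adjusted p = 0.0315) beside 24.4% of all genes. The other members named were Rpl3 (-0.45 ± 0.24), Rps27 (-0.54 ± 0.34), Rpl9 (-0.39 ± 0.25), Rpl15 (-0.18 ± 0.11) and Rpl18 (0.25 ± 0.30). With the score, 31 were lower and 3 higher, while 31.7% of all genes were lower and 32.8% higher. The 3 higher, Rpl18 (0.28 ± 0.04), Rpl22 (0.22 ± 0.05) and Rpl7 (0.14 ± 0.04), were also called higher in deletion mice, where 35 were lower and 4 higher beside 29.5% and 30.2% of all genes. Of the members called lower, 30 were shared, out of 31 in wild type and 35 in deletion mice.

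In deletion mice without the score, Rpl10 ran from 239.6 to 459.2 CPM (median 304.5) in striatum and from 135.6 to 330.9 CPM (median 229.0) in cerebellum (-0.55 ± 0.19, edgeR adjusted p = 0.0304). Rpl15 ran from 116.4 to 143.9 CPM (median 124.1) and from 80.2 to 123.7 CPM (median 107.8), so that 6 of 8 cerebellum libraries lay below all of striatum (-0.26 ± 0.09, edgeR adjusted p = 0.0357). These 2 and Rpl24 (0.79 ± 0.28, adjusted p = 0.0295) were the calls, beside 42.5% of all genes (21.5% lower and 21% higher). Both lower calls were lost without D801, D802, D803 or D804, and the Rpl24 call without D802, D803, D804 or D812. Without the striatal libraries of mixed markers, 2 were lower and 1 was higher in deletion mice, and 0 were called in wild type. With the score in that fit, 35 were lower and 4 higher in deletion mice and 27 lower and 3 higher in wild type. Without the cerebellum library of D809, 8 were lower and 1 was higher in deletion mice (median -0.32), and with the score 36 were lower and 4 higher. Short OXPHOS genes went the other way from most members, with 47 of 50 higher and 0 lower in wild-type cerebellum with the score (median 0.38), and other coding genes under 1000 bases had a median of 0.15.

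In the fit with sex and tissue alone, striatum against cortex gave the medians nearest 0. In wild-type mice 47 of 50 members were lower with a median of -0.09, and 0 were called beside 8.93% of all genes lower and 9.77% higher, with 0 at an unadjusted p under 0.05 and 0 by DESeq2. In deletion mice 41 of 50 were higher with a median of 0.06, and 0 were called beside 10.3% and 9.06%, with 0 at an unadjusted p under 0.05 and 0 by DESeq2. The direction of the members thus differed between the genotypes in this fit, as did the mean score of cortex given above. With the score, 25 were lower and 0 higher in wild type (23% and 22.4% of all genes) and 16 were lower and 0 higher in deletion mice (21.7% and 21.6%), with medians of -0.12 and -0.10. Of these, 13 members were shared. Without the striatal libraries of mixed markers, 18 were lower in wild type and 10 in deletion mice with the score. As a share of members, the 10 in deletion mice were near the 21.7% of all genes called lower with all libraries. The share of all genes called was not kept for fits with libraries left out, here and above, so their counts have no background of their own.

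Rpl12 (-0.37 ± 0.06), Rpl5 (-0.33 ± 0.05) and Rpl22 (-0.30 ± 0.05) were lowest in wild-type striatum with the score, and Rpl5 (edgeR adjusted p = 0.0324) and Rpl22 (adjusted p = 0.0227) were called with the animal block, beside 15.8% of all genes lower. Rpl22 ran from 92.3 to 137.9 CPM (median 123.8) in wild-type cortex and from 66.7 to 133.7 CPM (median 91.9) in striatum, with overlap. Rps6 was highest, at 0.16 ± 0.21 without and 0.12 ± 0.06 with the score, and was not called. Rps20 was at -0.24 ± 0.26 and Rpl15 at -0.13 ± 0.10 without the score. In deletion mice the members named were Rps6 (0.28 ± 0.19), Rpl22 (-0.19 ± 0.13), Rpl3 (0.25 ± 0.19), Rpl10 (0.19 ± 0.16) and Rpl11 (0.21 ± 0.22). Short OXPHOS genes fell as well in wild-type striatum with the score (47 of 50 called lower, median -0.36), and other coding genes under 1000 bases had a median of -0.18.

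A few members departed from the shared level in a way that followed the animal. Rpl30 and Rpl3, both on chromosome 15, were described relative to the mean log2 CPM of the other members of the same library, a choice made after their values were seen. Rpl3 is a large-subunit protein that reaches toward the peptidyl transferase centre. Relative Rpl30 in deletion animal D803 was -1.41 in cortex, -1.33 in striatum and -1.19 in cerebellum. In wild-type animal W814 it was -0.36, -0.32 and -0.23, and in deletion animal D801 it was -0.46, -0.26 and -0.28. The animal with a low value in 1 tissue thus had a low value in all 3. The SD between animals of the 3-tissue mean was 0.28, and the SD between tissues of an animal, with each tissue centred on its own mean, was 0.06.

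Relative Rpl3 was 1.55, 1.497 and 1.51 in cortex, striatum and cerebellum of deletion animal D801 and 1.39, 1.62 and 1.31 in wild-type animal W815. It was 0.87, 1.04 and 0.81 in wild-type animal W814 and 0.84, 1.09 and 0.87 in deletion animal D804. Striatum was the highest of the 3 tissues in every animal but D801, with tissue means from 1.08 to 1.29. The SD between animals was 0.20 and that between tissues of an animal, centred in the same way, 0.06. Low and high animals occurred in both genotypes. The 3-tissue mean of Rpl3 ran from 0.91 to 1.44 in wild-type and from 0.93 to 1.52 in deletion mice, and that of Rpl30 from -0.86 to -0.30 and from -1.31 to -0.33. The next largest ratios of these SDs were those of Rpl21 (0.13 against 0.06) and Rps13 (0.10 against 0.06).

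**Figure D5:**
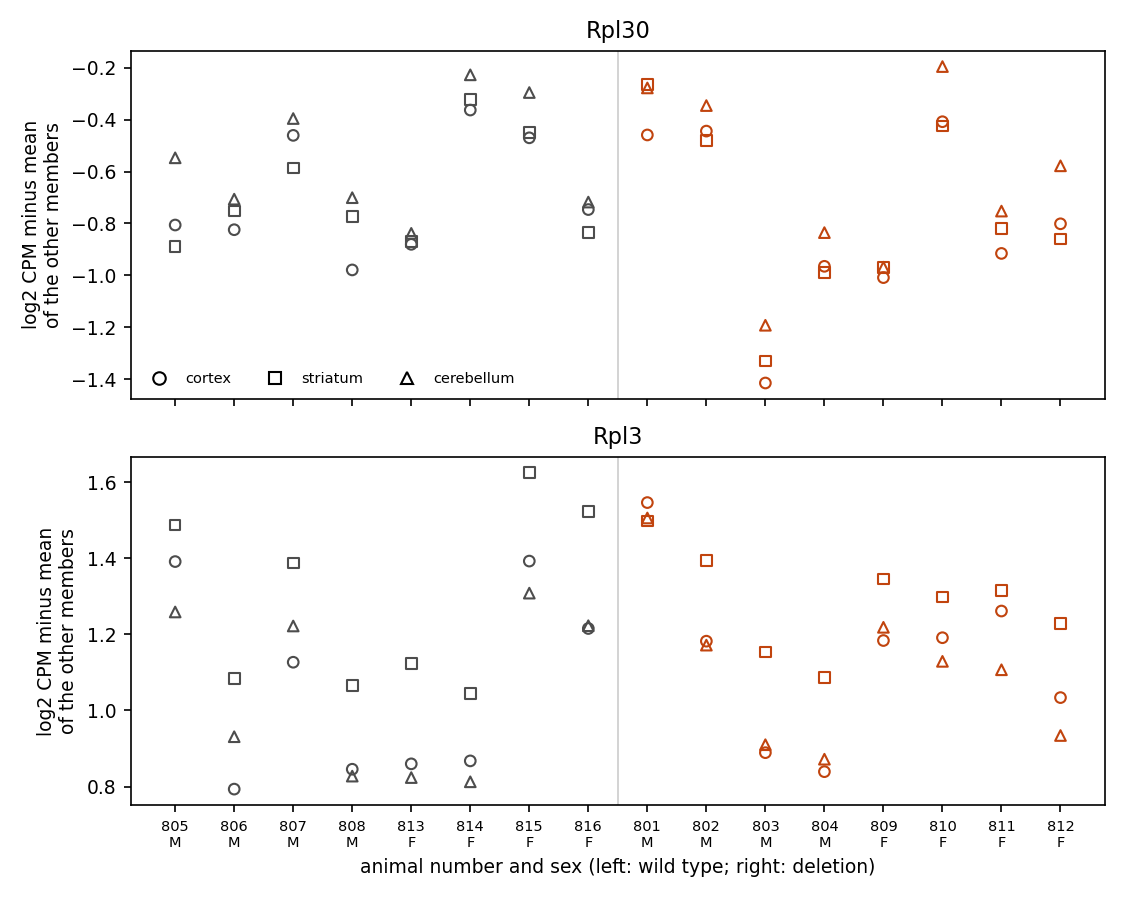
Relative level of Rpl30 (top) and Rpl3 (bottom), as log2 CPM minus the mean of the other members of the library (vertical axes), for each of 16 animals (horizontal axis). Circles are cortex, squares striatum and triangles cerebellum, with wild-type animals in grey and deletion animals in orange. The 3 tissues of an animal go up and down together, as at -1.41 to -1.19 for Rpl30 in animal D803, and for Rpl3 striatum lies above the other tissues in all but 1 animal.

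Differences between animals of the same genotype and sex were tested over all genes in an edgeR fit with tissue, genotype, sex and the score of each tissue, a test also added after these values were seen. It called 11 of 51 members beside 7.52% of the 18531 genes tested. Rpl30 had an adjusted p of 6.09e-11 and Rpl3 of 1.83e-07. The others called were Rps13 (3.75e-04), Rps27 (0.00373), Rpl21 (0.00910), Rps26 (0.0178), Rps28 (0.0265), Rps29 (0.0337), Rps15a (0.0394), Rps25 (0.0401) and Rpl10 (0.0493). Of these, Rps13, Rpl3 and Rps15a were the members with the most pseudogene counts relative to their own. Pseudogene counts of all members together also followed the animal in part. As a share of member counts they were 0.27 to 0.35% over the tissues of W815 and 0.56 to 0.58% in D801. They were 1.11 to 1.19% in D803 and 0.77 to 0.85% in W814. The mice were of mixed background, and the part of inherited sequence differences or of read assignment was not tested.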

How the data were processed

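The values were raw gene counts (whole numbers, without scaling), deposited by the authors for all 48 libraries. Libraries were stranded mRNA libraries, per the labels' protocols. FastQC 0.10.1, STAR 2.4.2a, Picard and SAMtools, and the builds GRCm38 and mm8, are named without a role per the submitters' processing notes. How reads were counted, and on which annotation, is not given in the sources used here. Rows of 92 spike-ins (0.0614 to 1.09% of counts) were left out. Symbols, lengths and coordinates came from GENCODE vM21, which held 46488 of 47069 gene identifiers, with the first principal transcript as length.

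The main test was edgeR's quasi-likelihood test (edgeR 4.0.16, limma 3.58.1, R 4.3.3) with TMM scaling, robust dispersions, sex as covariate, the package's own low-count filter and Benjamini-Hochberg adjustment over all genes tested, 2-sided, called at an adjusted p under 0.05. CPM values are on TMM-scaled library sizes, apart from Taok2, which is scaled by gene counts alone. Log2 CPM used a prior count of 2. The SE is the log2 fold change divided by the square root of F. DESeq2 1.42.0, other scalings, no filter, sexes apart, covariates, animal blocks and leaving out each animal were alternatives. The fits without the score or the block were tested on simulated data. Those counts were drawn for each gene separately, without the spread shared by short transcripts, so they cannot show how that spread affects the calls. The animal number of the labels pairs tissues, with a median same-animal correlation of deviations of 0.20 to 0.44 against -0.08 to -0.00 for other animals. Animals are taken as separate mice, per the labels, and 8 per group limits the precision. PCR reads are not independent molecules.

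Members named were every called member if 10 or fewer, otherwise the 5 of largest and smallest change, or with none called the 5 of smallest p and the extremes. For other lists they were up to 3 called genes in each direction. One called gene of those lists is not reported here. Rpl24 was named for its low counts. The members, lists and tests were chosen with earlier results of these data known.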

Additional observations from a re-analysis of the deposited data

Results flagged for a closer look

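Of 198 combinations of group and measure, 7 had 1 library set apart from the other 7 of its group by more than Dixon's 95% limit, where chance alone gives about 1 in 20. The striatum library of deletion animal D812 had 60751792 gene counts, against a median of 33518104 and a next highest value of 36021471 in its group, a gap of 0.785 of the group's range. Its summed member CPM of 8698 was the lowest of that group, and its short-transcript score was -0.67.

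The cerebellum library of deletion animal D809 had cerebellar markers at 6.42 (mean log2 CPM), against a median of 8.64 and a next lowest value of 8.42, a gap of 0.842. Its member level, the mean log2 CPM of the members relative to the wild-type mean, was 0.64, the highest of its group. Thalamic markers were high in the cortex libraries of deletion animal D802 (4.69, median 3.64) and wild-type animal W815 (5.05, median 3.46). Oligodendrocyte markers were low in the cortex library of D812, at 6.46 against a median of 7.51, and its summed member CPM of 6793 was the lowest of deletion cortex. The share of mitochondrial counts was high in cortex (6.32%, median 3.98%) and striatum (6.19%, median 4.28%) of deletion animal D811, whose summed member CPM was the second lowest of its group in both tissues.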

How the results depend on the processing

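The comparison of genotypes kept 0 members called under every alternative run, including DESeq2, other scalings, no filter, each sex alone and leaving out each animal. Leaving out 1 animal gave member medians of -0.29 (without D809) to -0.08 (without D812) in cortex, -0.06 to 0.19 in striatum and -0.10 to 0.13 in cerebellum. No paired analysis was possible because deletion and wild-type mice share no animal number. In cortex, Rpl15 turned to 0.0129 in males, 0.0288 with the score and 0.00311 with the striatal marker level. In striatum, Rps15a turned to 0.0205 without the libraries of mixed markers. In cerebellum, Rpl18 turned to 0.0630 in males and Rpl10 to -0.0435 with the striatal marker level and -0.0132 without the cerebellum library of D809. The cause was not tested.

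Calls between tissues depended on how the library spread was handled. With the replicate block, members called lower were 33 for wild-type cerebellum against cortex, 4 for deletion cerebellum against cortex, 1 for wild-type cerebellum against striatum and 2 for wild-type striatum against cortex. With the short-transcript score, calls in wild-type mice were 44 lower and 1 higher (cerebellum against cortex), 31 and 3 (cerebellum against striatum) and 25 lower (striatum against cortex). In deletion mice they were 45 lower and 1 higher, 35 lower and 4 higher, and 16 lower. Leaving out the striatal libraries of mixed markers as well gave 27 and 3 (wild type) and 35 and 4 (deletion) for cerebellum against striatum, and 18 and 10 lower for striatum against cortex. Leaving out the cerebellum library of D809 gave, in deletion mice, 2 lower against cortex and 8 lower against striatum, and with the score 46 and 1, and 36 and 4. Both omissions were added after seeing the data, and the share of all genes called was not kept for them. With the replicate block and the score together, added after seeing the data, the wild-type counts were 44 and 1, 32 and 3, and 29, and the deletion counts 46 and 1, 35 and 4, and 33, with Rpl10 at -0.0420 and Rpl11 at -0.0361 for deletion striatum against cortex. The member median of that comparison was 0.13 with the replicate block alone and -0.18 with both. The share of all genes called was not kept for the fits with both, so their counts have no background of their own. Nor was it kept for DESeq2, other scalings, no filter or each animal left out. The block moved no other count of calls.

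DESeq2 and no filter each called 1 higher for wild-type cerebellum against cortex and against striatum. For deletion cerebellum against cortex, upper-quartile scaling and no filter each called 0 lower, and against striatum no filter called 0 higher and 1 lower. Leaving out 1 animal gave 1 to 5 lower for wild-type cerebellum against cortex, 0 to 1 lower and 0 to 1 higher for deletion cerebellum against cortex, and 0 to 3 lower and 0 to 1 higher for deletion cerebellum against striatum. The spread shared by short transcripts, with a median SD near 0.5 on the log2 scale, and the 8 animals per group limit what the genotype comparison could show. Rpl24 had 4 to 26 counts per library.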
